A study of Homo sapiens with 19 samples.

Results

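The KNGUT elements are 163 designed reporter elements whose names consist of KNGUT, a locus number of 4 digits and the suffix .fwd or .rev. They were taken by name alone, out of 3422 element names in the 8 deposited tables, and they stand for 83 loci, 80 of them with both suffixes. One further element of the class carries a base substitution and was left out. The labels do not say what the letters KNGUT stand for or how these loci were picked, so the class is called here by its name. The suffixes are read as the 2 orientations of a locus in the plasmid. Genome positions and element sequences were not used here.

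The elements were assayed by QUASARR-seq, a dual-reporter assay in which each plasmid holds 1 element between a pair of barcodes. RNA over DNA of the barcode named paBC is read as promoter activity of the element, and RNA over DNA of the barcode named eaBC as its enhancer activity on a minimal promoter. The plasmid pools were electroporated into K-562, a long-established human leukaemia cell line, and RNA and DNA were taken after 6 h, so all values describe transient plasmids in 1 cell line. Each technical replicate pooled 5 electroporations of 20 µg plasmid and was then split into cells for RNA and cells for DNA. In set 1 the minimal promoter was pMYC, and set 2 held pMYC, pGAPDH and pAPOBEC3F together in 1 pool. Each read-out of each set has 2 RNA and 2 DNA libraries, 16 in all, and each minimal promoter and read-out has a table of its own. The 3 minimal promoters of set 2 therefore share their libraries. The protocol counts 2 technical replicates, and the labels number replicates 1 and 2 without calling them biological. The p-values therefore measure only the spread between these libraries. In the authors' promoter fit for pMYC in set 2 and their enhancer fit for pAPOBEC3F, that spread was pooled over all elements. The degrees of freedom recovered from their t and p were 5122 and 5390 there, 2 for each tested element.

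A promoter is the sequence from which RNA polymerase II starts a transcript, and it acts in a direction. An enhancer raises transcription from a promoter elsewhere on the same DNA and is classically described as working in either orientation. Many active enhancers are themselves transcribed, and many promoters act on other promoters, and the assay reads both kinds of activity from 1 plasmid. In such assays a minimal promoter alone gives a low basal signal, and an element can leave that signal as it is, raise it or lower it.

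Values are log2 RNA/DNA ratios, computed per replicate from the deposited signals with 0.5 reads added, where a read is 1 step of a signal column. Zero is set by how the authors scaled each library and does not mark an empty vector, so "higher" and "lower" below mean RNA above or below DNA on that scale. The tables were normalized separately, and no level was tested between tables. Depth differed widely between tables. The median member had 4632 RNA reads over both replicates in the pGAPDH promoter table, 1717 in the set 1 promoter table and 97.5 as enhancers under pAPOBEC3F. In the pAPOBEC3F enhancer read-out, 17 members had fewer than 20 RNA reads. The deposited columns hold between 200722 and 10880944 reads per library. Of the 163 members, 121 were tested by the authors in all 8 tables and each was tested in at least 2. KNGUT0019.fwd, KNGUT0072.rev, KNGUT0097.rev, KNGUT0100.rev and KNGUT0130.rev were listed without a test in 1 or 2 tables.

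The median RNA/DNA ratio of the KNGUT elements lay below that of all elements in every table. In the promoter read-out of set 1, their median ratio was -0.29, with a range of -1.68 to 0.39, against a median of 0.39 over all 1528 tested elements. The authors' deposited table called 96 of 156 members lower and 10 higher, beside 26.0% lower and 56.1% higher among all tested elements. With the table centred on the median of all its elements, limma called 146 members lower and 0 higher. For this and the centred counts below, the share of all elements called was not computed. Only 1 member lay above the table's own median, KNGUT0032.fwd at the percentile rank of 50.1. The members' ranks had a median of 22.25 on a scale where 100 is the highest element of the table, so they sat in its lower part. Leaving out 1 library moved the limma count of lower members to between 64 and 116, and the count of higher members to 3 and 2 when DNA replicate 1 or 2 was dropped, and to 20 and 21 when RNA replicate 1 or 2 was dropped.

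In set 2 the same held under pMYC and pAPOBEC3F. Under pMYC, the members had a median ratio of -0.33 against 0.24 over all elements, and the authors' deposited table called 84 of 138 members lower and 11 higher, beside 27.8% and 52.3% of all elements. Centred on the median of all elements, limma called 112 lower and 2 higher there. That count of 11 higher members was 5 and 4 when DNA replicate 1 or 2 was dropped, and 20 when RNA replicate 1 was. Under pAPOBEC3F, the median was -0.55 against 0.24, and the authors' deposited table called 116 of 142 members lower and 0 higher, beside 30.6% and 50.7%. No member lay above the median of the pAPOBEC3F promoter table. The highest of them, KNGUT0134.fwd, had ratios of 0.06 and 0.23 in its 2 replicates. The pAPOBEC3F count of 0 higher members was also 0 in the authors' deposited limma columns at an unadjusted p under 0.05 and in an own limma fit, and became 4 when RNA replicate 1 was left out.

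Under pGAPDH the members' ranks lay nearer to the middle of the table, with a median of 39.6. The members had a median of -0.22 in the promoter read-out against -0.07 over all elements, and 52 of 159 lay above the table's median. The authors' deposited table called 98 of 159 members lower and 24 higher, beside 46.6% lower and 36.3% higher among all elements. Leaving out 1 library kept the limma counts between 93 and 100 lower and between 20 and 26 higher members.

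Enhancer medians of the KNGUT elements were nearer to 0 than their promoter medians in each construct, a difference between tables that was not tested. By rank no such uniform difference was seen. Their median enhancer ranks were 18.68 in set 1 and 19.23, 31.96 and 22.93 under pMYC, pGAPDH and pAPOBEC3F in set 2. The promoter ranks were 22.25, 22.67, 39.6 and 17.06 in the same order, so only under pAPOBEC3F was the median enhancer rank the higher. Taken within each member, promoter minus enhancer rank had medians of 0.98, -2.32, 5.44 and -4.82 points. Over all elements these medians were 0.59, 0.16, 1.37 and -0.6. The promoter rank was the higher in 81 of 156, 54 of 138, 101 of 159 and 46 of 142 members. In set 1, the enhancer median was -0.11 against 0.23 over all elements, and the authors' deposited table called 50 of 157 members lower and 9 higher, beside 11.8% and 54.6%. Under pMYC in set 2, the median was -0.17 against 0.19, with 27 of 139 members lower and 8 higher in the authors' deposited table, beside 7.38% and 40.4%. Under pGAPDH, it was -0.11 against -0.01, with 54 of 161 lower and 7 higher in the authors' deposited table, beside 18.5% and 22.2%. Under pAPOBEC3F, it was -0.22 against 0.09, with 28 of 142 lower and 2 higher in the authors' deposited table, beside 7.38% and 30.1%. For that count of 2 higher members, an own limma fit called 0 without a replicate block and 1 with it. In each enhancer table most members were called neither way, 98 of 157 in set 1 and 104 of 139, 100 of 161 and 112 of 142 in set 2. Among all elements the numbers were 512 of 1528, 1337 of 2561, 1802 of 3043 and 1686 of 2695 in the same order. With each table centred on the median of all its elements, 132 members were called lower and 2 higher in set 1, and 65 lower and 1 higher under pMYC in set 2.

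Leaving out 1 library moved the enhancer counts by more than 1.5 times. In set 1, the limma fits called 22 and 18 members lower when DNA replicate 1 or 2 was dropped, and 79 when RNA replicate 1 was. Under pMYC in set 2, they called 10 and 8 lower when DNA replicate 1 or 2 was dropped, and 45 when RNA replicate 1 was. Under pGAPDH, they called 35 lower without RNA replicate 1 and 25 without RNA replicate 2. Under pAPOBEC3F, they called 7 and 4 lower when DNA replicate 1 or 2 was dropped, and 60 and 53 when RNA replicate 1 or 2 was dropped. The number of low enhancers is therefore loosely bounded, while the 4 promoter counts stayed within 1.5 times of their values. The higher counts moved as well. They were 4 without either DNA library, 18 without RNA replicate 1 and 17 without RNA replicate 2 in set 1. They were 4 and 2 when DNA replicate 1 or 2 was dropped and 13 without either RNA library under pMYC in set 2, and 3 without either RNA library under pGAPDH. Under pAPOBEC3F they were 0 without either DNA library, 6 without RNA replicate 1 and 5 without RNA replicate 2.

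The other low classes of the library stood beside the KNGUT elements. In the set 1 promoter read-out, the classes named KNGAT and KNGAE had medians of -0.37 and -0.39, and in the pAPOBEC3F promoter read-out -0.64 and -0.55. Elements named by a number alone had promoter medians of -0.25 in set 1 and -0.04 under pAPOBEC3F. Members are not replicates of a condition, so these medians carry no test.

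The correlation of the 2 replicate ratios across members was 0.81 in the set 1 promoter table, 0.82 and 0.96 in the pMYC and pGAPDH promoter tables of set 2, and 0.62 under pAPOBEC3F. In the enhancer tables it was 0.62 in set 1 and 0.25, 0.38 and 0.31 under pMYC, pGAPDH and pAPOBEC3F. These are descriptions over 138 to 161 elements, which share libraries and a narrow range of values. Their SD over members was 0.43 in the pGAPDH promoter table and 0.17 in the pGAPDH enhancer table. In the pAPOBEC3F enhancer table, the 71 members with fewer RNA reads had a median SD between replicates of 0.29 and the 71 with more had one of 0.13.

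KNGUT0012.rev had the lowest promoter ratio of all members in 3 of the 4 promoter tables. Its replicates gave -1.61 and -1.75 in set 1, -1.39 and -2.25 under pMYC in set 2, -1.92 and -1.89 under pGAPDH and -1.58 and -1.58 under pAPOBEC3F. All 8 values lay below -1, and the authors' deposited tables gave limma adjusted p-values between 4.2e-07 and 1.7e-19. The smallest, under pMYC in set 2, rests on a spread pooled over all elements and not on this element's own replicates. As an enhancer the same element was much nearer to 0. Its enhancer ratios were -0.06 and -0.20 in set 1 and -0.16 and -0.09 under pGAPDH, neither called in the authors' deposited tables. Under pMYC in set 2 they were -0.60 and -0.50 on 32 and 37 RNA reads, and under pAPOBEC3F -0.60 and -0.82 on 41 and 38 RNA reads, both called lower in the authors' deposited tables.

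KNGUT0041 was low in both orientations. KNGUT0041.rev gave promoter ratios of -1.31 and -1.27 in set 1, -1.26 and -1.39 under pMYC in set 2, -1.52 and -1.36 under pGAPDH and -0.79 and -1.60 under pAPOBEC3F. It was also among the lowest enhancers, with -0.53 in both replicates of set 1 and -0.75 and -0.70 under pGAPDH, where it had a percentile rank of 0.54. KNGUT0041.fwd gave -0.61 and -0.43 as a promoter in set 1 and -1.32 and -1.44 under pGAPDH. Both orientations were below 0 in every promoter replicate, and the .fwd form was called lower in all 8 of the authors' deposited tables.

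Other low promoters were low under a part of the constructs or on few reads. KNGUT0087.fwd was the lowest member under pAPOBEC3F, with -2.53 and -1.23, but on only 5 and 14 RNA reads, and it had -1.38 and -1.24 under pGAPDH on 992 and 1195. KNGUT0038.fwd had -1.52 and -1.44 under pGAPDH and -1.24 and -0.71 in set 1. KNGUT0048.fwd had -1.17 and -2.06 under pMYC in set 2 on 48 and 31 RNA reads, against -1.01 and -0.28 in set 1 on 329 and 618. KNGUT0028.fwd, among the 3 lowest in both read-outs of set 1, had -1.73 and -0.59 as a promoter and -0.94 and -0.97 as an enhancer, on 13 to 48 RNA reads per library. KNGUT0045.fwd had promoter ratios of -1.69 and -1.42 under pAPOBEC3F on 10 and 13 RNA reads. The replicates of KNGUT0087.fwd, KNGUT0048.fwd and KNGUT0028.fwd lay far apart in the shallow tables, and their place among the low members is not resolved there.

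Among the low enhancers, KNGUT0046.rev had -0.52 and -0.49 under pGAPDH on 1400 and 1499 RNA reads, and -0.41 and -0.54 under pMYC in set 2. KNGUT0108.fwd had -0.78 and -0.93 in set 1, and KNGUT0108.rev -1.44 and -0.65 there on 15 and 30 RNA reads. Neither orientation of that locus was called under pGAPDH in the authors' deposited table, where KNGUT0108.fwd gave -0.03 and -0.18. KNGUT0059.fwd had the lowest ratios of all, -1.64 and -2.28 under pAPOBEC3F, but these rest on 5 and 3 RNA reads, and it had -0.38 and -0.48 under pGAPDH on 393 and 372. The lowest enhancer ratios under pMYC in set 2, those of KNGUT0024.fwd with a mean of -1.01, rest on 10 and 7 RNA reads. KNGUT0025.rev under pAPOBEC3F gave -1.93 and 0.12 on 4 and 18 RNA reads, so its replicates did not share a sign. It was still called lower in the authors' deposited table, where the spread was pooled over all elements.

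Member ratios stayed far below the top of the library. The highest promoter ratio of any member was 0.50, that of KNGUT0084.fwd under pMYC and pGAPDH in set 2. The highest of all elements reached 7.25 and 6.42 under these minimal promoters in the same order. KNGUT0084.fwd had replicate ratios of 0.53 and 0.48 under pMYC, 0.45 and 0.55 under pGAPDH and 0.50 and 0.19 in set 1, but -0.43 and -0.83 under pAPOBEC3F. The authors' deposited tables called it higher in the promoter tables of set 1, pMYC and pGAPDH and lower under pAPOBEC3F. Among the members tested under all 3 minimal promoters of set 2, it had the widest range of promoter rank over them, 70.33 points.

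KNGUT0016.rev was called higher in 5 of the 8 authors' deposited tables. Its promoter ratios were 0.50 and 0.43 under pMYC in set 2 and 0.47 and 0.42 under pGAPDH, and its enhancer ratios were 0.20 and 0.56 and 0.35 and 0.32 in the same order. These 4 pairs were all called, as was its enhancer pair in set 1, at 0.35 and 0.16 in the authors' deposited table. Under pAPOBEC3F neither read-out was called, with promoter ratios of -0.01 and 0.22. KNGUT0066.fwd was called higher in the promoter tables of set 1, pMYC and pGAPDH of the authors' deposited data, at 0.33 and 0.20, 0.38 and 0.28, and 0.42 and 0.44.

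Among the members called higher as enhancers in set 1 in the authors' deposited table, the 2 orientations of KNGUT0085 had the highest mean ratios. KNGUT0085.rev stood at 0.66 and 0.71 and KNGUT0085.fwd at 0.74 and 0.45, and both were called. KNGUT0032.rev, with 0.48 and 0.75 on 16 and 23 RNA reads, had a mean above that of KNGUT0085.fwd but was not called in the authors' deposited table. In set 2 under the same minimal promoter, the .fwd form kept a lower positive ratio of 0.31 and 0.21, while KNGUT0085.rev gave -0.10 and -0.12. The promoter ratios of KNGUT0085.rev were 0.37 and 0.31 in set 1, against -0.43 and -0.17 under pMYC in set 2 and -0.75 and -0.84 under pGAPDH. The same element thus lay on opposite sides of 0 in the 2 sets with the same minimal promoter.

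The 2 enhancer ratios above 1 rest on few reads. KNGUT0005.fwd had 1.00 and 1.13 under pMYC in set 2 on 19 and 21 RNA reads, against -0.43 and -0.33 in set 1 on 92 and 125. KNGUT0043.rev had 1.13 and 1.46 under pAPOBEC3F on 4 and 6 RNA and 10 and 10 DNA reads, against values between -0.35 and 0.14 in the other enhancer tables. Both were called higher in the authors' deposited tables.

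Calls were next followed across tables. Of the 121 members tested in all 4 promoter tables, 54 were called lower in each of the 4 authors' deposited tables, against 209 of 1066 of all elements. Of the 122 tested in all 4 enhancer tables, 9 were called lower in each of the authors' deposited tables, against 19 of 1065 of all elements. The 3 promoter tables of set 2 share libraries, so their calls are not independent. Members had fewer reads in the enhancer tables than in the promoter tables of the same construct, and the part of depth in these counts was not tested.

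Of the 121 members tested in all 8 tables, 8 were called lower in every one of the authors' deposited tables, against 18 of 1059 of all elements. These were KNGUT0031.fwd, KNGUT0041.fwd, KNGUT0056.fwd, KNGUT0071.fwd, KNGUT0088.fwd, KNGUT0088.rev, KNGUT0091.rev and KNGUT0095.fwd. KNGUT0095.fwd gave promoter ratios of -0.72 and -0.31 in set 1, -0.87 and -0.76 under pMYC in set 2, -1.01 and -1.01 under pGAPDH and -1.05 and -0.83 under pAPOBEC3F. Its enhancer ratios were -0.21 and -0.25, -0.44 and -0.39, -0.13 and -0.34, and -0.69 and -0.83 in the same order. All 16 values of that element were below 0. KNGUT0088 was the single locus with both orientations in this list. KNGUT0088.fwd gave promoter ratios of -0.19 and -0.24 and enhancer ratios of -0.41 and -0.46 under pGAPDH.

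At the other end, 13 of the 121 were called lower in none of the 8 authors' deposited tables, against 464 of 1059 of all elements. Besides KNGUT0016.rev and KNGUT0066.fwd, they include both orientations of KNGUT0029 and of KNGUT0129. KNGUT0029.fwd had promoter ratios of 0.31 and 0.35 in set 1, 0.22 and 0.26 under pGAPDH and -0.02 and 0.13 under pAPOBEC3F. No member was called higher in every table of either read-out. The share of all elements called higher in every table of a read-out was not computed. At least 1 of the authors' deposited tables called 32 of the 121 members higher, against 692 of 1059 of all elements. Called lower in at least 1 of the authors' deposited tables were 108 of the 121 members, against 595 of 1059 of all elements.

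Promoter and enhancer calls of the same member were set side by side within each construct. In set 1, the authors' deposited tables called 38 of 156 members lower in both read-outs, 55 as a promoter only and 12 as an enhancer only. Under pMYC in set 2, the corresponding numbers in the authors' deposited tables were 23, 61 and 4 of 138. Under pGAPDH they were 45, 53 and 7 of 159, and under pAPOBEC3F 28, 88 and 0 of 142, again in the authors' deposited tables. Of the members called low enhancers, 76.0%, 85.2% and 83.3% were also low promoters in set 1 and under pMYC and pGAPDH, as were all 28 under pAPOBEC3F. The shares of all elements in the same authors' deposited tables were 75.1%, 90.5%, 84.4% and 81.4%. Of the members called low promoters, 39.6%, 27.4%, 45.9% and 24.1% were low enhancers in the same order, against 34.3%, 24.1%, 33.6% and 19.6% of all elements in the authors' deposited tables. Across members, promoter and enhancer ratios correlated with Pearson's r of 0.44 in set 1 and 0.53, 0.53 and 0.47 under pMYC, pGAPDH and pAPOBEC3F, over 138 to 159 elements. Over all elements, with a far wider range of ratios, the same r were 0.85, 0.84, 0.62 and 0.76. Promoter and enhancer libraries come from the same pools of cells, and no p is given.

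Percentile ranks were used to set the read-outs of a member side by side. The gap was averaged over the constructs for members tested in both read-outs of at least 3 of the 4. KNGUT0071.rev had the lowest promoter minus enhancer rank, -33.54 points over 4 constructs. Its promoter ratios were -0.76 and -0.72 in set 1 and -1.03 and -1.06 under pGAPDH, against enhancer ratios of 0.14 and 0.17 and of 0.08 and 0.09. KNGUT0020.rev, KNGUT0054.rev and KNGUT0011.rev followed, with promoter minus enhancer ranks of -26.96, -25.66 and -25.44. All of these are .rev forms. The mean of KNGUT0020.rev covers 3 constructs, and its enhancer ratios of 0.69 and -0.36 under pAPOBEC3F rest on 6 and 5 RNA reads. In the other direction KNGUT0108.fwd ranked 31.50 points higher as a promoter over 3 constructs, with promoter ratios of -0.32 and -0.17 in set 1 against the enhancer ratios of -0.78 and -0.93 given above. KNGUT0111.fwd, KNGUT0032.fwd and KNGUT0122.fwd followed at 22.86, 21.94 and 21.91 points, and all of these are .fwd forms.

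Whether orientation mattered was tested within each table, as the .fwd minus .rev difference of the RNA/DNA ratio in a limma fit over all unsubstituted loci with both orientations. The .fwd and .rev values of a library entered this fit as separate columns and were treated as independent. The pairing of RNA with DNA libraries was not modelled there, and counts with a replicate block are given at the end. In the set 1 promoter read-out, 52 of 77 KNGUT loci differed at an adjusted p under 0.05, beside 67.5% of all 643 loci, and the .fwd form was higher in 46 of the 52. The share of KNGUT loci called was 67.5% as well. Under pMYC in set 2, 27 of 60 loci differed, beside 61.2% of all loci, with .fwd higher in 18. Under pGAPDH, 59 of 79 differed, beside 73.2%, with .fwd higher in 32. Under pAPOBEC3F, 27 of 63 differed, beside 57.7%, with .fwd higher in 19. Among all called loci, .fwd was higher in 318 of 434 in set 1 and 423 of 669 under pMYC in set 2. It was higher in 584 of 1054 under pGAPDH and 428 of 690 under pAPOBEC3F. Without DNA replicate 1, the limma fits called 25 loci in set 1, 13 under pMYC and 10 under pAPOBEC3F. Without DNA replicate 2 these numbers were 22, 12 and 7, and without RNA replicate 1 the pAPOBEC3F count was 46.

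Fewer loci were called in the enhancer read-out. In set 1, 14 of 77 KNGUT loci differed, beside 27.7% of all loci, and .rev was the higher form in 9. Under pGAPDH, 15 of 79 differed, beside 15.9%, and .rev was higher in 12. Among all called loci, .rev was higher in 127 of 178 in set 1 and 177 of 228 under pGAPDH. Under pMYC and pAPOBEC3F in set 2, 3 of 60 and 1 of 63 differed, beside 10.9% and 8.39% of all loci. In simulated data a difference of 0.5 was recovered for 36% and 21% of loci in these last 2 tables, against 89% and 68% in the enhancer tables of set 1 and pGAPDH, so that smaller differences were mostly not detectable there. Leaving out either DNA library gave 2 called loci in set 1 and 0 under pMYC and pAPOBEC3F. Without RNA replicate 1, limma called 36, 11, 3 and 16 loci in set 1 and under pMYC, pGAPDH and pAPOBEC3F, and without RNA replicate 2 it called 32, 12, 1 and 17. The number of orientation-dependent enhancers is thus not fixed by these libraries.

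The higher orientation, taken over all members, was opposite in the 2 read-outs. In set 1, the .fwd elements had a promoter median of -0.16 and the .rev elements one of -0.47, while their enhancer medians were -0.14 and -0.06. The authors' deposited enhancer tables called 33 of 79 .fwd members lower against 17 of 78 .rev members in set 1, and 39 of 80 against 15 of 81 under pGAPDH. Among all elements of these 2 authors' deposited tables, 17.0% of the .fwd and 10.3% of the .rev forms were lower in set 1, and 23.5% and 13.6% under pGAPDH. With pMYC in set 2, 16 of 69 .fwd and 11 of 70 .rev members were called lower in the authors' deposited table, beside 8.37% and 6.37% of all. Under pAPOBEC3F the authors' deposited table called 16 of 69 and 12 of 73, beside 8.11% and 6.69% of all. The promoter median difference was 0.35 over the KNGUT loci of set 1 and 0.25 over all loci, and the enhancer median difference was -0.07 and -0.06, so the sign of both was that of the library at large. In 39 of the 77 loci of set 1, .fwd was above .rev as a promoter and below it as an enhancer, against 35.2% of all 642 loci with both differences. In set 2 this held for 13 of 60 KNGUT loci under pMYC, 22 of 79 under pGAPDH and 23 of 63 under pAPOBEC3F, against 24.0%, 27.2% and 31.0% of all loci. Both differences were called, in opposite directions, for 4 of these loci in set 1, which were KNGUT0007, KNGUT0031, KNGUT0071 and KNGUT0082. Under pGAPDH the 3 such loci were KNGUT0003, KNGUT0007 and KNGUT0071. More loci were called in the same direction in both read-outs, 8 in set 1, 9 under pGAPDH and 2 under pMYC in set 2. Across KNGUT loci, promoter and enhancer differences correlated with r = 0.48 in set 1. The r were 0.43, 0.46 and 0.34 under pMYC, pGAPDH and pAPOBEC3F. These shared calls and correlations were not computed over all loci.

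KNGUT0071 and KNGUT0007 were called in opposite directions in both sets. For KNGUT0071 in set 1, the promoter ratios were -0.44 and -0.32 in the .fwd form and -0.76 and -0.72 in the .rev form, a difference of 0.35 (SE 0.09, limma adjusted p = 0.003). Its enhancer ratios were -0.32 and -0.35 in the .fwd form and 0.14 and 0.17 in the .rev form, a difference of -0.49 (SE 0.07, limma adjusted p = 0.00031). Under pGAPDH the differences were 0.16 (SE 0.06, limma adjusted p = 0.026) and -0.38 (SE 0.08, limma adjusted p = 0.0029). For KNGUT0007 they were 0.53 and -0.51 in set 1 and 0.50 and -0.55 under pGAPDH, with limma adjusted p between 0.00084 and 0.045. In all of these the values of the 2 orientations did not overlap. Under pMYC in set 2, KNGUT0071 gave a promoter difference of -0.20 that was not called (SE 0.16, limma adjusted p = 0.28). Neither locus was called as an enhancer under pAPOBEC3F, where KNGUT0071 gave -0.23 (SE 0.20, limma adjusted p = 0.55). The difference between read-outs was not itself tested, since they lie in separate tables.

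KNGUT0134 was higher in the .fwd form as a promoter in all 4 tables. The .fwd form gave -0.28 and -0.36 in set 1, 0.00 and -0.15 under pMYC in set 2, -0.10 and 0.01 under pGAPDH and 0.06 and 0.23 under pAPOBEC3F. The .rev form gave -1.04 and -1.08, -1.79 and -1.06, -1.11 and -1.16, and -1.11 and -1.13 in the same order. The orientations did not overlap in any table. The .fwd minus .rev difference was 0.74 (SE 0.10, limma adjusted p = 4e-05) in set 1 and 1.35 (SE 0.28, limma adjusted p = 0.0013) under pMYC in set 2. It was 1.09 (SE 0.05, limma adjusted p = 1.1e-14) under pGAPDH and 1.26 (SE 0.13, limma adjusted p = 5.5e-06) under pAPOBEC3F. As an enhancer no table called an orientation difference for this locus, with differences between -0.19 and 0.56.

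Of the 50 loci with both orientations in all 4 promoter tables, 5 were called higher in the .fwd form in each table and 2 higher in the .rev form, against 86 and 43 of all 471 such loci. The .fwd loci were KNGUT0011, KNGUT0036, KNGUT0066, KNGUT0105 and KNGUT0134, and the .rev loci were KNGUT0016 and KNGUT0056. KNGUT0066 gave promoter differences of 0.85, 1.02, 0.76 and 0.85 in the order of set 1, pMYC, pGAPDH and pAPOBEC3F, with limma adjusted p between 4.3e-13 and 0.0012. KNGUT0056 gave -0.56, -0.57, -1.05 and -0.33, with limma adjusted p between 3.7e-16 and 0.0018. For KNGUT0056 under pGAPDH the .fwd form was at -0.87 and -0.88 and the .rev form at 0.18 and 0.18. A further 6 of the 50 loci were called both ways in different tables and 2 were never called, against 67 and 26 of all 471. In the enhancer read-out no locus of the 50 was called in all 4 tables, and 31 were called in none, against 3 called higher in the .fwd form in all 4, 9 in the .rev form and 262 called in none among all 468 such loci.

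KNGUT0094 and KNGUT0038 had large orientation differences but were not measured in both orientations everywhere. For KNGUT0094 under pGAPDH, the .fwd form gave 0.28 and 0.36 and the .rev form -0.80 and -0.67, a difference of 1.06 (SE 0.07, limma adjusted p = 9.2e-13), and set 1 gave 1.02 (SE 0.10, limma adjusted p = 2.1e-06). KNGUT0094 was also higher in the .fwd form as an enhancer in set 1, by 0.25 (SE 0.07, limma adjusted p = 0.017). KNGUT0038 was higher in the .rev form, by -1.08 as .fwd minus .rev (SE 0.24, limma adjusted p = 0.0015) in set 1. KNGUT0048 was likewise higher in the .rev form under pGAPDH, by -0.90 (SE 0.17, limma adjusted p = 4.3e-05). The largest promoter difference of all, -1.97 for KNGUT0019 in set 1 (SE 0.57, limma adjusted p = 0.0086), rests on 3 and 10 RNA reads of the .fwd form, which the authors listed without a test. Under pGAPDH, with 3642 and 4324 RNA reads of that form, the difference was -0.65 (SE 0.09, limma adjusted p = 1.2e-06).

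Among the enhancer differences, KNGUT0063 was higher in the .rev form in 2 tables, on at least 386 RNA reads per library. The .fwd form gave -0.28 and -0.41 in set 1 and -0.29 and -0.37 under pGAPDH, and the .rev form 0.01 and -0.06, and -0.02 and 0.19. The differences were -0.32 (SE 0.07, limma adjusted p = 0.0085) and -0.42 (SE 0.09, limma adjusted p = 0.0026). The largest enhancer difference, -1.95 for KNGUT0043 under pAPOBEC3F (SE 0.48, limma adjusted p = 0.022), rests on the 4 and 6 RNA reads of its .rev form. Where depth was higher the difference was not called, with -0.09 in set 1, 0.01 under pMYC in set 2 and -0.13 under pGAPDH.

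The same minimal promoter, pMYC, was used in both sets, which allows the members to be compared between separate libraries. For 134 members tested in both promoter tables, the authors' deposited tables called 81 lower in set 1 and 82 in set 2, and 69 in both, which is 85.2% and 84.1% of each list. A single member, KNGUT0085.rev, was called in opposite directions. The promoter ratios of the 2 sets correlated with r = 0.79 over these 134 elements. For 136 members in both enhancer tables, 42 and 27 were called lower in the authors' deposited tables and 16 in both, or 38.1% and 59.3% of each list, and 2 were called in opposite directions, with r = 0.38. All elements gave r = 0.97 and 0.90 over 1137 and 1139 shared elements with a wider range. The overlap of calls was not computed over all elements, so the shares of the members are not set against the library.

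Orientation differences were compared between the sets in the same way. For the 59 loci with both orientations in both pMYC promoter tables, .fwd was above .rev in 50 loci in set 1 and in 33 in set 2, with median differences of 0.36 and 0.10. Their correlation was r = 0.54 and Spearman's rho 0.65. In the limma fits 21 of the 59 were called in both sets, 18 of them in the same direction. The 3 called in opposite directions were KNGUT0030, KNGUT0047 and KNGUT0052. KNGUT0047 gave 0.36 (SE 0.10, limma adjusted p = 0.0064) in set 1, with -0.33 and -0.24 in the .fwd form and -0.59 and -0.71 in the .rev form. In set 2 it gave -0.41 (SE 0.13, limma adjusted p = 0.021), with -1.08 and -0.81 in the .fwd form and -0.57 and -0.49 in the .rev form. Under pGAPDH, from the libraries of set 2, KNGUT0030, KNGUT0047 and KNGUT0052 gave -0.22, -0.20 and -0.15, each called by limma and each with the sign of pMYC in set 2. Under pAPOBEC3F, from the same libraries, KNGUT0030 and KNGUT0052 gave 0.10 and 0.32, with the sign of set 1 and neither called. KNGUT0047 was not measured in both orientations there. The cause of the difference between sets was not tested. These counts were not made over all loci with both orientations in both sets. Over all loci of each pMYC promoter table, the median difference was 0.25 in set 1 and 0.14 in set 2.

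Between the minimal promoters of set 2, promoter ratios of the members ran most closely for pGAPDH and pMYC, with r = 0.89 over 136 elements. The values were 0.74 for pGAPDH and pAPOBEC3F over 139 and 0.74 for pMYC and pAPOBEC3F over 123. Enhancer ratios gave 0.36, 0.35 and 0.35 over 138, 141 and 124 elements. Over all elements the closest promoter tables were instead pMYC and pAPOBEC3F, with r = 0.97, against 0.84 for pGAPDH and pMYC. These tables share libraries, and the correlations are descriptions without a test. After KNGUT0084.fwd, the widest ranges of promoter rank among members tested under all 3 were those of KNGUT0002.rev, KNGUT0063.rev and KNGUT0035.rev, at 62.44, 50.69 and 49.61 points. All 4 ranked highest under pGAPDH and lowest under pAPOBEC3F. KNGUT0063.rev had 0.14 and 0.12 under pGAPDH, 0.07 and -0.11 under pMYC on 50 and 44 RNA reads and -0.57 and -0.65 under pAPOBEC3F. KNGUT0002.rev had 0.03 and -1.24 under pAPOBEC3F on 12 and 5 RNA reads.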

How the data were processed

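The deposited tables hold, for each element, a scaled signal in 2 RNA and 2 DNA columns and the authors' limma columns. Per the file headers these are a log2 fold change of RNA over DNA and a mean log2 level, a t and a B score, and raw and adjusted p-values made by the authors. The scaled signal columns of the deposited tables were taken to be read counts times 1 factor per library, since 100% of values were whole multiples of 1 step per column within a tolerance of 0.02. That step is called 1 read, and it could be a multiple of the true read. The submitters' processing notes name fastp, edgeR, limma and hg38. The aligner and the barcode matching are not given in the sources used here.

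Replicate ratios were log2 of RNA over DNA signal with 0.5 reads added to each, and their mean differed from the authors' deposited log2 fold change by at most 0.0704. Calls of higher and lower are the authors' deposited ones at an adjusted p under 0.05, counted over all tested elements of a table. Orientation was tested with limma 3.58.1 in R 4.3.3 on log2 signal with 0.5 reads added, as the orientation by molecule interaction with a mean trend in the variance and Benjamini-Hochberg adjustment over all loci with both orientations. The other steps used python 3.11.15, numpy 2.4.6, scipy 1.17.1 and pandas 2.3.3. Tested on simulated data with 100 changed loci per size, the orientation fit recovered a difference of 1 in 71% to 99% of loci over the 8 tables.

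The series has 19 samples, of which 16 enter the tables and 3 index libraries were not used. No deposited column was left unmatched (0). Elements named in the text are the 3 highest and 3 lowest called members of each table, the 5 loci of each read-out with the largest orientation difference, members called across tables or read-outs, and the 4 members with the widest rank gaps. Members and loci named because their call patterns differed between tables or sets were chosen after their values were seen. The members and lists were chosen with earlier results of these data known. RNA and DNA libraries of 1 number are paired, since per the labels' protocols the cells of each replicate were split for both, and ratios were taken within numbers. Their deviations correlated with r = 0.41 in the set 1 enhancer table and between -0.07 and 0.03 in the others. Alternatives were other thresholds, centring, own limma fits with and without a replicate block, other added reads and leaving out each library.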

Additional observations from a re-analysis of the deposited data

Results flagged for a closer look

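For 18 members the authors' deposited tables called opposite directions in 2 tables of the same read-out, with both replicates above 0 in the one and below 0 in the other. Of these, 15 concern the promoter read-out, and in 13 of the 18 the lowest value was under pAPOBEC3F. The tables were normalized separately, so the difference between them was not tested. The share of all elements called in opposite directions was not computed. The class as a whole also ranked lower under pAPOBEC3F, with a median promoter rank of 17.06 against 39.6 under pGAPDH. Values are mean log2 RNA/DNA ratios of 2 replicates.

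Called higher as promoters under pGAPDH and lower under pAPOBEC3F were KNGUT0035.rev, KNGUT0040.rev, KNGUT0044.rev, KNGUT0056.rev, KNGUT0063.rev, KNGUT0107.rev, KNGUT0111.fwd and KNGUT0114.fwd. In that order they stood at 0.18, 0.0721, 0.13, 0.18, 0.13, 0.17, 0.14 and 0.14 under pGAPDH and at -0.49, -0.42, -0.28, -0.45, -0.61, -0.34, -0.37 and -0.60 under pAPOBEC3F. KNGUT0002.fwd stood at 0.10 under pGAPDH and at -0.21 under pMYC in set 2 as a promoter. KNGUT0032.fwd stood at 0.39 in set 1 and at -0.30 under pGAPDH as a promoter. KNGUT0084.fwd stood at 0.50 under pMYC in set 2 and at -0.63 under pAPOBEC3F as a promoter. KNGUT0085.rev stood at 0.34 in set 1 and at -0.79 under pGAPDH as a promoter. KNGUT0118.fwd stood at 0.17 in set 1 and at -0.51 under pAPOBEC3F on 48 RNA reads as a promoter. KNGUT0122.fwd stood at 0.29 under pMYC in set 2 and at -0.30 under pAPOBEC3F as a promoter. KNGUT0126.fwd stood at 0.18 in set 1 and at -0.36 under pAPOBEC3F as a promoter.

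KNGUT0005.fwd stood at 1.06 under pMYC in set 2 on 40 RNA reads and at -0.38 in set 1 as an enhancer. KNGUT0031.rev stood at 0.16 in set 1 and at -0.24 under pMYC in set 2 as an enhancer. KNGUT0071.rev stood at 0.16 in set 1 and at -0.36 under pAPOBEC3F as an enhancer.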

How the results depend on the processing

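The members' median ratios and percentile ranks moved by less than the spread between replicates in all 48 and 8 alternatives run. That spread was the median over single members, a wide bar for a median of all members. The 8 rank alternatives ranked unsubstituted elements only, and set 2 held no substituted element, so its ranks could not move. Of the alternatives to the counts, 39 of 80 for higher, 27 of 80 for lower and 36 of 88 for orientation calls moved the count by more than 1.5 times. In the order set 1, pMYC, pGAPDH and pAPOBEC3F, with promoter before enhancer in each, leaving out 1 library gave 2 to 21, 4 to 18, 4 to 20, 2 to 13, 20 to 26, 3 to 8, 0 to 4 and 0 to 6 higher members. It gave 64 to 116, 18 to 79, 63 to 98, 8 to 45, 93 to 100, 25 to 50, 98 to 125 and 4 to 60 lower members (35 without RNA replicate 1 in the pGAPDH enhancer table), and 22 to 74, 2 to 36, 12 to 39, 0 to 12, 46 to 62, 1 to 14, 7 to 46 and 0 to 17 loci with an orientation difference. A minimum absolute log2 fold change of 1 left 0, 0, 0, 1, 0, 0, 0 and 1 higher and 5, 1, 10, 1, 11, 0, 18 and 2 lower members, and 4, 0, 4, 1, 3, 0, 3 and 1 orientation loci. Centring each table gave 0, 2, 2, 1 and 0 higher members in the 2 tables of set 1, the 2 of pMYC and the pAPOBEC3F enhancer table. Centring gave 146 and 132 lower members in set 1, and 65 and 43 in the pMYC and pAPOBEC3F enhancer tables. An adjusted p under 0.01 left 5, 3 and 0 higher and 13, 33 and 12 lower members in the pMYC, pGAPDH and pAPOBEC3F enhancer tables. It left 6, 16, 1, 7, 13 and 0 orientation loci in the set 1 enhancer, pMYC promoter and enhancer, pGAPDH enhancer and both pAPOBEC3F tables. Without a variance trend, limma called 1 and 2 orientation loci in the pMYC and pGAPDH enhancer tables. The cause of these shifts was not tested, beyond the stricter thresholds and fewer libraries that some alternatives impose. The planned count test on recovered reads was not run here. Depth limits the pMYC and pAPOBEC3F enhancer tables most.

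With the replicate number as a replicate block, limma called 94, 53, 81, 28, 101, 56, 115 and 30 members lower and 8, 9, 11, 8, 23, 8, 0 and 1 higher, and 55, 12, 28, 3, 57, 14, 27 and 1 orientation loci. Without the block, limma called 0 members higher in the pAPOBEC3F enhancer table, and the block moved no other count by more than 1.5 times.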
